A study of Homo sapiens with 4 samples.

Results

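The 9 genes described here encode, or are close relatives of genes that encode, proteins that the oocyte stores for the early embryo. They are *KHDC3L*, *OOEP*, *NLRP5*, *TLE6*, *PADI6*, *NLRP2*, *NLRP7*, *KHDC1* and *KHDC1L*, taken by name, without a threshold on any measured value, out of 62218 genes with a matched transcript in the count files. The value of each gene was the count of its transcript with the largest mean count, called the counted transcript here. Of the 27633 genes with enough counts to be tested, 7 were members. *NLRP5* and *PADI6* fell under the count minimum of 10 in at least 2 libraries.

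Long-read Nanopore cDNA libraries were compared between human embryonic stem cells (hESCs) of the naïve and of the primed state, with 2 libraries per state. The primed cells were the wild-type H1 line grown in mTeSR medium, and the naïve cells were wild-type cells derived from the same H1 line and grown in FINE medium, at low oxygen according to the methods of the study. Both states thus come from a single cell line, and state, medium and oxygen cannot be told apart. Nothing states that the 2 libraries of a state came from separate cultures, so the p-values measure the spread between these libraries, which may be technical. Replicates differed by more than sampling noise, with a chi-square per degree of freedom of 14.2 between the naïve and 8.80 between the primed libraries.

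In the oocyte, OOEP, KHDC3L, NLRP5 and TLE6 are core proteins of the subcortical maternal complex, a large assembly under the plasma membrane, and PADI6 is needed for the cytoplasmic lattices that store maternal proteins. Loss of such genes in a mother can halt her embryos at early cleavage or disturb their imprinting, and *NLRP7* and *KHDC3L* are among the genes known for recurrent hydatidiform mole. *OOEP*, *KHDC3L*, *KHDC1* and *KHDC1L* lie with *DPPA5* in a cluster of genes for KH-domain proteins, a fold related to RNA binding, at 6q13. *NLRP2* and *NLRP7* lie head to head on chromosome 19, with 130 bases between the starts of their canonical transcripts, NLRP2-208 and NLRP7-206. The canonical transcript is the one that Ensembl takes as the representative of a gene.

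The sequence just upstream of the 3 members of the 6q13 cluster whose canonical transcripts fell most is given here, since these genes moved in the same direction. Each is the 250 bases before the RefSeq start (GRCh38.p14), given 5′ to 3′ on the strand of the gene, with CpG dinucleotides in capitals. The windows are chr6:73362408-73362657 on the plus strand for *KHDC3L*, chr6:73369898-73370147 on the minus strand for *OOEP* and chr6:73225497-73225746 on the minus strand for *KHDC1L*.
KHDC3L: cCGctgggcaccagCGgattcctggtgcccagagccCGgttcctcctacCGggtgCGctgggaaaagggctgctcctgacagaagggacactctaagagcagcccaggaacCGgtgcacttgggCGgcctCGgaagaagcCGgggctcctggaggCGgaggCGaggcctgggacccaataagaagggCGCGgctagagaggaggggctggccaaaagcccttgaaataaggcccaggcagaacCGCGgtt
OOEP: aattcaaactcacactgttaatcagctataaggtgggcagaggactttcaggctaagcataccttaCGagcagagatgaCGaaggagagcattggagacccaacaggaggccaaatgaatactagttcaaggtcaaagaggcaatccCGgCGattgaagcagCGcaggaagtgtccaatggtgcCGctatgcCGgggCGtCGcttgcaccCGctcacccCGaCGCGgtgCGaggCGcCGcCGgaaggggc
KHDC1L: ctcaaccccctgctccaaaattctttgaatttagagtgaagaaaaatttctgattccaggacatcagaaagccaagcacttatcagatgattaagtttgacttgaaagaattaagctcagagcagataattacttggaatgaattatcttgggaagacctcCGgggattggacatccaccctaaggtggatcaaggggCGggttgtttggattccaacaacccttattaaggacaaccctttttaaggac

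These windows did not share one base composition. That of *KHDC3L* holds 15 CpGs and that of *OOEP* 17, against a median of 11 over 35116 promoter windows, while that of *KHDC1L* holds 2. No exon of any gene lies in the *KHDC3L* window, the first exon of the antisense RNA OOEP-AS1 reaches into the *OOEP* window, and the longer first exon of KHDC1L-202 covers the *KHDC1L* window. The letters CCAAT, on either strand, occur in 9 of the 11 windows of the 9 members, and in 32.0% of all windows. The letters GGGCGG occur in 7 of the 11 and in 42.6% of all, TAATTA in 2 of the 11 and in 4.35%, and TATAAA in 0 of the 11 and in 10.7%. ATGCAAAT was in 0 of the 11 windows and in 1.63% of all. *NLRP2* and *KHDC1* have 2 windows each, and those of *NLRP2* differ at only 1 position, so the windows are not independent.

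Of the 7 tested members, 5 were lower and 2 were higher in primed than in naïve hESCs, with an adjusted p under 0.05 in the quasi-likelihood fit of edgeR. Over all genes tested, 32.6% were called lower and 37.4% higher. The median log2 fold change, primed minus naïve, was -5.83 over the 7 tested members and 0.08 over all genes. The members are no random draw and the 2 that failed the count filter are not in this median. The scaling moved all genes together: with library size in place of TMM, the median of all genes moved up by 0.64 and calls went from 9009 lower and 10327 higher to 4511 lower and 15525 higher. The directions of all 7 members' counted transcripts were the same under both scalings. Levels are given as CPM, the count relative to the TMM-scaled library size, and fold changes are between the states and not between genes.

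**Figure D1:**
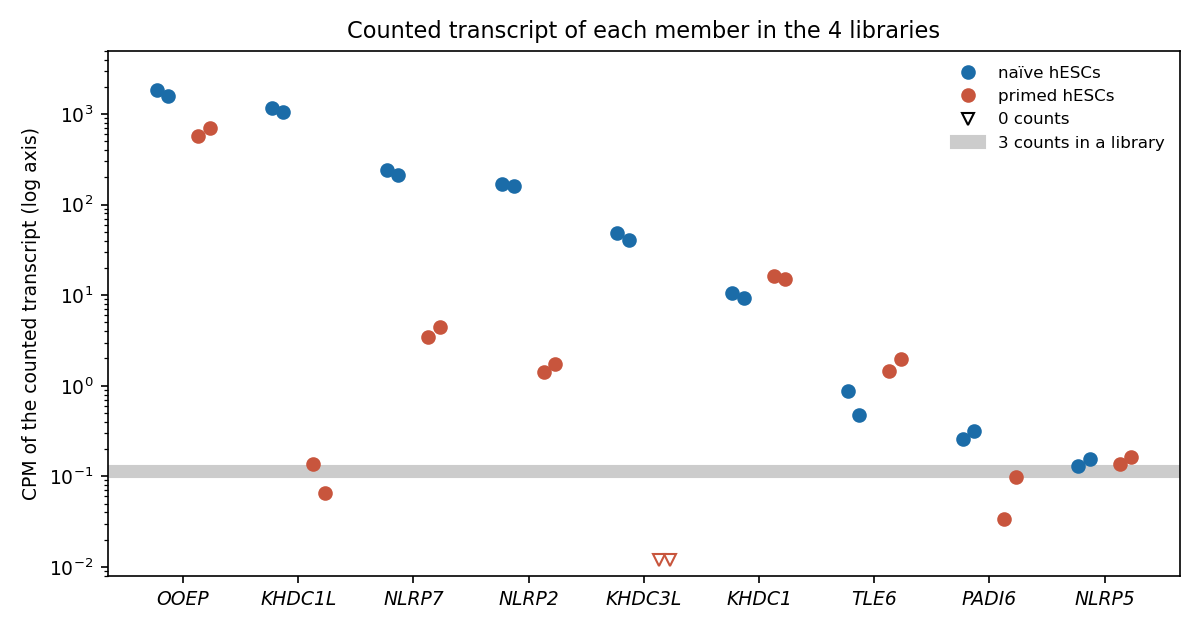
CPM of the counted transcript of each member (log axis) in the 2 naïve and 2 primed libraries; each point is 1 library, open triangles are counts of 0 and the grey band is the CPM of 3 counts in a library. *KHDC1L*, *NLRP7*, *NLRP2* and *KHDC3L* are far apart between the states, while *NLRP5* sits at the band in all 4 libraries.

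*KHDC3L* encodes a KH-domain protein of the subcortical maternal complex. Its single transcript, KHDC3L-201 (chr6:73362658-73364171, plus strand, 3 exons), was counted 1134 and 1050 times in the naïve libraries and 0 and 0 times in the primed libraries. Every alignment to this gene was therefore in naïve cells, and the span overlaps no other gene. The mean was 45.1 ± 5.66 CPM (SD, n = 2) in naïve hESCs. Set against a floor of 3 counts in each primed library, the naïve level was at least 452.2-fold higher (edgeR adjusted p = 3.57e-28). As in any bulk sample, fewer cells with a transcript and less of it per cell cannot be told apart.

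*KHDC1L* encodes a KH-domain relative of KHDC1. KHDC1L-201 (chr6:73223544-73225496, minus strand, 3 exons) was counted 27211 and 26908 times in naïve and 4 and 2 times in primed libraries. The states did not overlap, and the primed counts were near the floor. The level was 1116 ± 88.3 CPM in naïve and 0.10 ± 0.0499 CPM in primed hESCs (SD, n = 2 each). The naïve to primed ratio of counts was 11159, with a 95% exact interval from 5127 to 30410 for counting error only, and the log2 fold change was -13.38 ± 0.28 (SE, edgeR adjusted p = 3.37e-35).

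*KHDC1L* also lies inside the span of a read-through gene, ENSG00000243501, which had 27276 and 26964 counts in naïve and 52 and 58 in primed libraries. The part of that span outside *KHDC1L* had 65 and 56 counts in naïve and 48 and 56 in primed libraries, so the large difference was in the *KHDC1L* part. KHDC1L-201 matches KHDC1-201 with 89.1% identity over 402 bases, and the pseudogene KHDC1P1 with 87.5% over 393 bases. Reads could in part be placed at a paralogue, which was not tested.

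*OOEP* encodes another KH-domain protein of the complex, and its value depended on which transcript was counted. The counted transcript, OOEP-202 (chr6:73368555-73395093, minus strand, 4 exons), had 42457 and 40702 counts in naïve and 17064 and 21524 in primed libraries. It was lower in both primed libraries, at 640.3 ± 86.4 against 1717 ± 173 CPM (SD, n = 2 each), a log2 fold change of -1.42 ± 0.15 (SE, edgeR adjusted p = 1.64e-11). However, 97.9% and 97.8% of these alignments in naïve and 99.3% and 99.4% in primed libraries lay over RPL39P3, a processed pseudogene of the ribosomal protein gene *RPL39* in an intron of OOEP-202.

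RPL39P3 (chr6:73373108-73373263, minus strand) is printed here because it carries nearly all of the counts given to OOEP-202. Its 156 bases are identical to bases 55 to 210 of the 390 bases of RPL39-201.
RPL39P3: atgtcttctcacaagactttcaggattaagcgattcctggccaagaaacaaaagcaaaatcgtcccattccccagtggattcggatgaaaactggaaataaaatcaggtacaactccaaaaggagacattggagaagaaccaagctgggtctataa

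The counts of RPL39P3 were 41561 and 39807 in naïve and 16941 and 21401 in primed libraries. Those of *RPL39* itself were 41613 and 39838 in naïve and 17012 and 21473 in primed libraries. The counts of both loci thus differed by less than 1% of either in each library, and each place to which a read aligned was counted.

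Outside RPL39P3, the OOEP-202 span had 896 and 895 counts in naïve and 123 and 123 in primed libraries, a log2 fold change of -3.17 ± 0.17 (SE, edgeR adjusted p = 2.14e-20). This remainder still holds other parts of OOEP-AS1, the pseudogene RPS6P8 and the start of *DDX43*. The canonical transcript OOEP-201 (chr6:73368555-73369897, 3 exons) lies apart from RPL39P3, but its span meets that of OOEP-AS1, and strand was not used in the counting. OOEP-201 had 475 and 436 counts in naïve and 6 and 6 in primed libraries. Its level was 18.8 ± 2.47 CPM in naïve and 0.20 ± 0.0058 CPM in primed hESCs (SD, n = 2 each). The log2 fold change was -6.53 ± 0.29 (SE, edgeR adjusted p = 9.57e-35). Each of these measures was lower in primed hESCs, by very different amounts. That of the whole OOEP-202 span was made up almost wholly of alignments over RPL39P3, and *RPL39* itself had a log2 fold change of -1.40 ± 0.15 (SE). The value of OOEP-202 is therefore not a measure of *OOEP* alone.

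**Figure D2:**
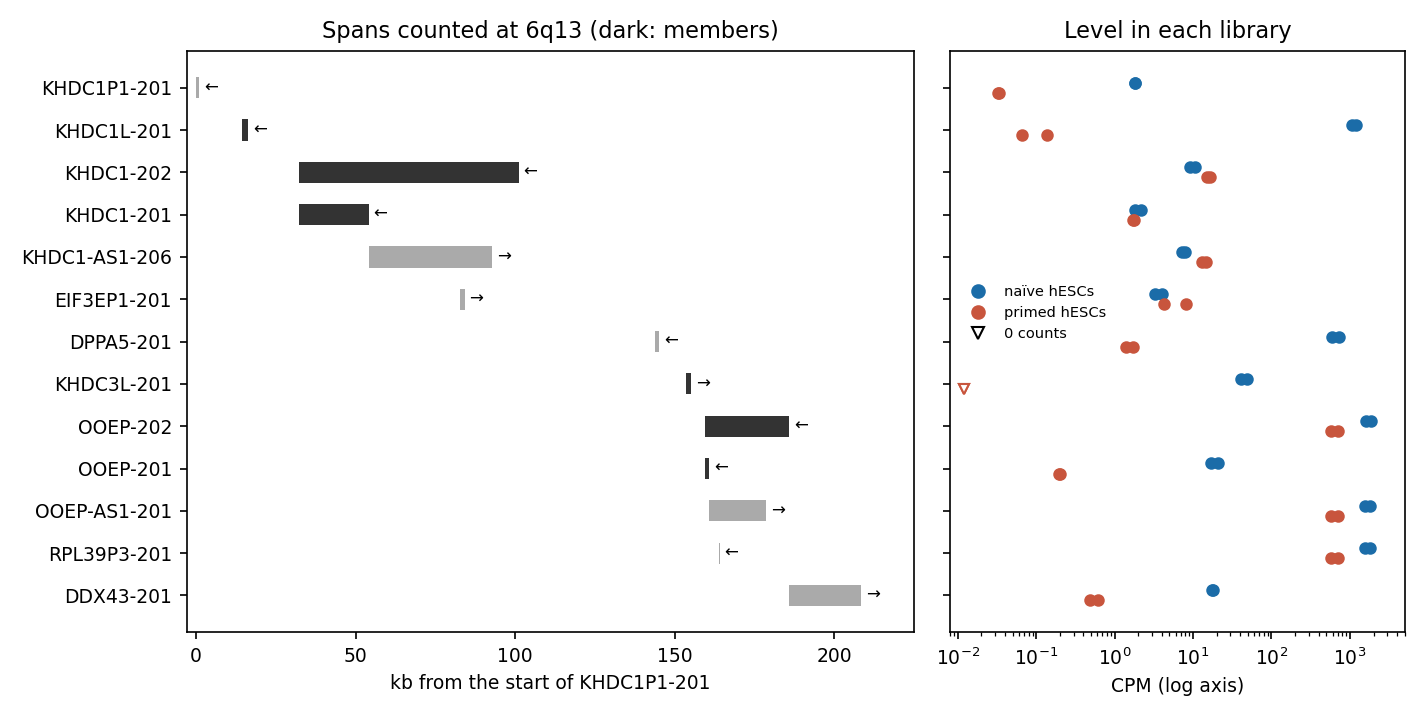
Spans of the transcripts at 6q13 in kb from the start of KHDC1P1-201 (left; dark bars are members, arrows give the strand) and the CPM of each in the 4 libraries (right, log axis; open triangles are counts of 0). OOEP-202, OOEP-AS1-201 and RPL39P3-201 have almost the same level in each library, while the short OOEP-201 does not.

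*KHDC1* encodes a KH-domain protein related to KHDC1L. The counted transcript, KHDC1-202 (chr6:73241314-73310215, minus strand, 5 exons), had 245 and 235 counts in naïve and 479 and 463 in primed libraries. It was higher in both primed libraries, at 15.7 ± 0.828 against 9.91 ± 0.996 CPM (SD, n = 2 each), a log2 fold change of 0.66 ± 0.17 (SE, edgeR adjusted p = 5.02e-04). Within this span lies the antisense gene *KHDC1-AS1*, with 183 and 185 counts in naïve and 425 and 395 in primed libraries. Strand was not used in the counting, so alignments of *KHDC1* and its antisense partner cannot be told apart where they overlap.

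Outside *KHDC1-AS1*, the span had 62 and 50 counts in naïve and 54 and 68 in primed libraries, with no call (log2 fold change -0.19 ± 0.27 SE, edgeR adjusted p = 0.541). The canonical KHDC1-201 (chr6:73241314-73263184) had 50 and 46 counts in naïve and 51 and 54 in primed libraries, with no call (log2 fold change -0.19 ± 0.28 SE, edgeR adjusted p = 0.566). Under library size the canonical value was 0.46 (adjusted p = 0.132). The increase was thus measured only with the alignments over the span of the antisense gene. That antisense span itself holds 2 pseudogenes. EIF3EP1, of *EIF3E*, had 92 and 83 counts in naïve and 239 and 130 in primed libraries. RPSAP41, of *RPSA*, had 25 and 56 in naïve and 14 and 18 in primed libraries. *EIF3E* itself had 2577 and 2765 counts in naïve and 5223 and 3630 in primed libraries. The part of the pseudogenes in the increase was not tested.

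*NLRP7* encodes an NLR-family protein of the oocyte. NLRP7-206 (chr19:54923515-54966243, minus strand, 13 exons) had 5548 and 5382 counts in naïve and 102 and 136 in primed libraries. The states did not overlap. The level was 225.6 ± 20.9 CPM in naïve and 3.95 ± 0.686 CPM in primed hESCs (SD, n = 2 each), a 57.1-fold difference with a log2 fold change of -5.83 ± 0.19 (SE, edgeR adjusted p = 8.83e-29).

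The few primed alignments of NLRP7-206 were spread differently along the span. Of its alignments, 3.10% and 2.90% in the naïve libraries lay outside the shorter NLRP7-207, in the stretch toward the 5′ end, against 38.2% (95% Wilson interval 29.4 to 47.9) and 48.5% (40.3 to 56.9) in the primed libraries. In counts, these were 172 and 156 in naïve and 39 and 66 in primed libraries. The first exons of NLRP2-218 and NLRP2-219 lie in this outer stretch. The counted transcript of *NLRP2*, NLRP2-214, starts there too, so the counted transcripts of *NLRP7* and *NLRP2* share part of their spans. NLRP7-202, which overlaps no exon of another gene, had 5446 and 5282 counts in naïve and 74 and 87 in primed libraries, and its log2 fold change was -6.37 ± 0.19 (SE, edgeR adjusted p = 6.49e-30).

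*NLRP2*, the head-to-head neighbour, encodes a related NLR protein, linked in mothers to imprinting disorders of their children. NLRP2-214 (chr19:54965252-55001142, plus strand, 13 exons) had 3883 and 4140 counts in naïve and 42 and 54 in primed libraries. The level was 165.2 ± 4.28 CPM in naïve and 1.59 ± 0.236 CPM in primed hESCs (SD, n = 2 each), 103.7-fold apart without overlap. The log2 fold change was -6.69 ± 0.20 (SE, edgeR adjusted p = 5.84e-30). The canonical NLRP2-208 had nearly the same counts, 3865 and 4125 in naïve and 41 and 52 in primed libraries.

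RPL36AP50, a pseudogene of *RPL36A* inside *NLRP2*, had 46 and 47 counts in naïve and 5 and 5 in primed libraries, a small part of the span. NLRP2-213, which overlaps no exon of another gene, had 1928 and 2329 counts in naïve and 17 and 21 in primed libraries, with a log2 fold change of -7.10 ± 0.22 (SE, edgeR adjusted p = 2.16e-29). The canonical *NLRP2* and *NLRP7* transcripts match with 78.6% identity over 2568 bases.

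**Figure D3:**
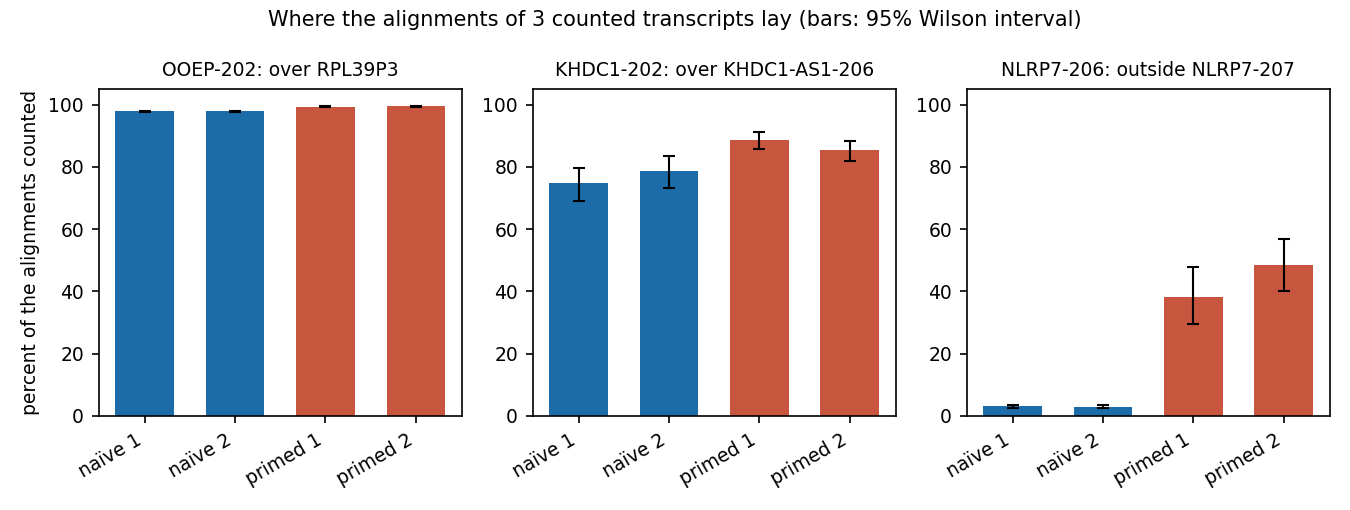
Percent of the alignments of OOEP-202 that lay over RPL39P3 (left), of KHDC1-202 over KHDC1-AS1-206 (middle) and of NLRP7-206 outside NLRP7-207 (right), in each library; bars are the share and whiskers the 95% Wilson interval, for counting error only. The NLRP7 share is 3.10% and 2.90% in naïve hESCs against 38.2% and 48.5% in primed hESCs.

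*TLE6* encodes a co-repressor relative that joins the subcortical maternal complex. TLE6-201 (chr19:2977564-2995179, plus strand, 17 exons) had 20 and 12 counts in naïve and 43 and 61 in primed libraries. It was the second member above its naïve level, at 1.72 ± 0.374 against 0.668 ± 0.280 CPM (SD, n = 2 each), 2.58-fold with a log2 fold change of 1.38 ± 0.35 (SE, edgeR adjusted p = 6.44e-04). These counts are low, and leaving out each library in turn gave log2 fold changes from 0.99 to 1.86.

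The alignments were not spread over the gene alike. TLE6-206, a short transcript inside the span, had 2 and 4 counts in naïve and 36 and 40 in primed libraries. TLE6-208, which covers the start of the gene with 3 exons, had 14 and 9 in naïve and 6 and 14 in primed libraries. The primed alignments were thus mainly over the middle of the gene. Outside TLE6-206, the TLE6-201 span had 18 and 8 counts in naïve and 7 and 21 in primed libraries. The states overlapped in this remainder, which was not tested. TLE6-205, which lies downstream of TLE6-206, had 4 and 3 counts in naïve and 16 and 17 in primed libraries. An alignment can cover both of these transcripts. Whether the increase reached beyond the alignments over TLE6-206 was not tested.

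*NLRP5* encodes a core protein of the complex and had almost no counts. NLRP5-201 (chr19:55999726-56061810, plus strand, 15 exons) had 3 and 4 counts in naïve and 4 and 5 in primed libraries. The states overlapped, and a difference was not detectable at this depth, with a naïve to primed ratio of 0.962 (95% exact interval 0.305 to 2.90, counting error only).

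*PADI6* encodes a protein of the peptidylarginine deiminase family. PADI6-201 (chr1:17372196-17401699, plus strand, 16 exons) had 6 and 8 counts in naïve and 1 and 3 in primed libraries. The ratio of naïve to primed counts was 4.33 (95% exact interval 1.36 to 18.1, counting error only). It was not tested under the count minimum. Without the minimum, its log2 fold change was -2.05 ± 0.84 (SE, edgeR adjusted p = 0.0377). Of the 5 genes of the oocyte complexes proper, *OOEP* and *KHDC3L* were lower in primed hESCs. *TLE6* was higher at low counts, with most of its primed alignments over TLE6-206, and *NLRP5* and *PADI6* were close to the floor in both states.

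**Figure D4:**
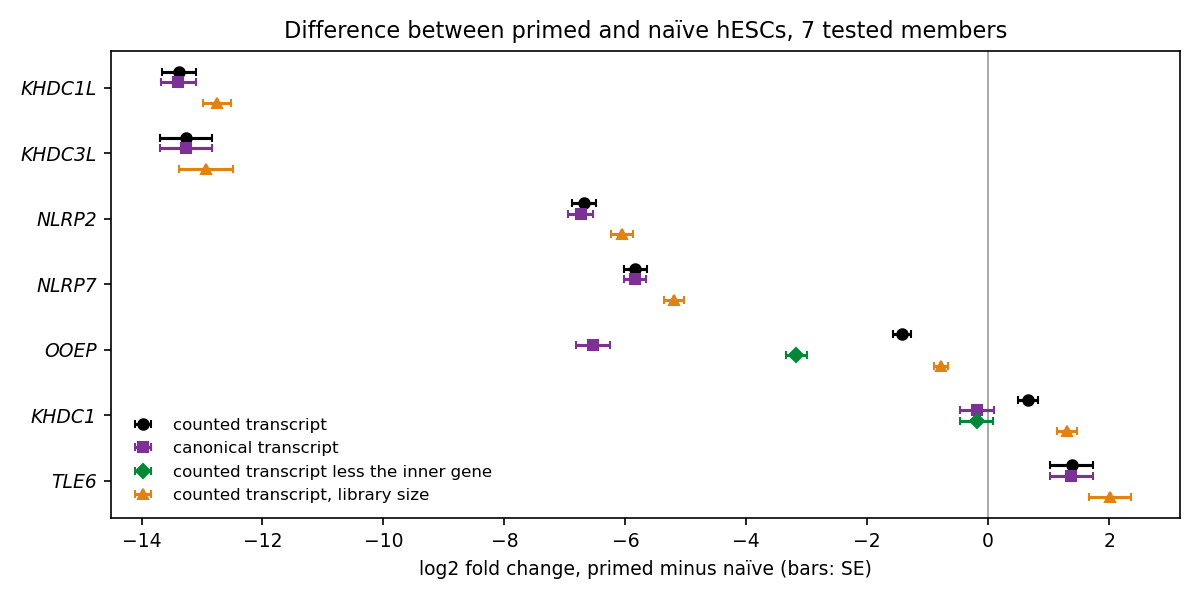
Log2 fold change, primed minus naïve, of the 7 tested members with its SE, for the counted transcript, the canonical transcript, the counted transcript less the alignments over the inner gene (RPL39P3 for OOEP and KHDC1-AS1 for KHDC1) and the counted transcript with library size in place of TMM. The fitted value of KHDC3L, with 0 primed counts, depends on how zeros are handled. OOEP runs from -6.53 for the canonical transcript to -0.78 under library size, and KHDC1 crosses 0.

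The isoforms of the members were also compared by their fractions. An isoform fraction is the count per exonic base of an isoform over the sum for its gene, and dIF is its primed minus its naïve mean. Counts were taken over whole spans, and an alignment was counted for every isoform it overlapped. The fractions therefore follow where alignments lay along a gene and do not measure isoform use directly. Isoforms of a gene share alignments, so their tests are not independent. The files hold 52 transcripts of the 9 members, of which 48 in 6 genes were tested with edgeR's diffSpliceDGE. A call needed a shift in the fraction of more than 0.1, up or down, beside an adjusted p under 0.05, and 1 of the 48 was called, against 0.545% of all isoforms tested. It was TLE6-208, whose mean fraction fell from 25.3% ± 2.07 in naïve to 5.76% ± 2.31 in primed hESCs (SD, n = 2 each, dIF -0.195, adjusted p = 0.00411). Its own counts were 14 and 9 in naïve and 6 and 14 in primed libraries, while those of TLE6-206 were 2 and 4 against 36 and 40.

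That call rests on few counts and was lost without naïve replicate 1, without primed replicate 1 and with a minimum of 50 counts. A further 6 isoforms passed the p-value but not the dIF threshold. They were OOEP-201, NLRP2-203, NLRP2-215, NLRP2-217, NLRP2-218 and NLRP2-219. Of these, NLRP2-218 and NLRP2-219, which reach into *NLRP7*, had larger fractions in primed cells (dIF 0.07 for each), and NLRP2-203, NLRP2-215 and NLRP2-217 had smaller ones (dIF -0.04, -0.03 and -0.03). OOEP-201 had a fraction of 0.683% ± 0.021 in naïve and 0.020% ± 0.003 in primed hESCs (SD, n = 2 each, adjusted p = 8.88e-06), with the denominator made up almost wholly of the RPL39P3 alignments.

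The genes around the members were taken within 50000 bases. Of 34 such genes in the files, 23 were tested, of which 11 were lower, 7 higher and 5 not called in primed hESCs, or 10, 11 and 2 under library size. Some of these lie on a member's counted transcript and share its alignments, such as RPL39P3, OOEP-AS1 and ENSG00000243501. The 15 tested genes that overlap no counted member transcript were 5 lower, 5 higher and 5 not called, or 4, 9 and 2 under library size. In the 6q13 cluster, *DPPA5*, which encodes a KH-domain protein of early embryos and lies 8382 bases from the nearest member, had 16741 and 15306 counts in naïve and 51 and 43 in primed libraries (log2 fold change -8.72 ± 0.21 SE). The helicase gene *DDX43* had 399 and 464 in naïve and 18 and 15 in primed libraries (log2 fold change -5.00 ± 0.24 SE). KHDC1P1, the pseudogene beside *KHDC1L*, had 42 and 46 in naïve and 1 and 1 in primed libraries.

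The lowering did not cover the whole stretch. *KCNQ5*, a potassium channel gene 24691 bases from the nearest member, had 26 and 41 counts in naïve and 185 and 188 in primed libraries (log2 fold change 2.17 ± 0.25 SE). *CGAS*, the gene of the cytosolic DNA sensor, was lower with its counted transcript (258 and 295 in naïve, 100 and 119 in primed), whose span meets *DDX43*, and its canonical transcript had 104 and 126 in naïve and 91 and 112 in primed libraries (log2 fold change -0.49 ± 0.22 SE, adjusted p = 0.0443, and 0.16 under library size). Near the chromosome 19 pair, *NCR1*, a receptor gene of natural killer cells, was higher (40 and 45 in naïve, 75 and 106 in primed), *GP6*, a platelet receptor gene, was lower (144 and 125 in naïve, 81 and 111 in primed), and *RDH13* was not called (299 and 318 in naïve, 381 and 464 in primed). Under library size *GP6* was not called (log2 fold change -0.16, adjusted p = 0.529) and *RDH13* was higher (log2 fold change 0.78, adjusted p = 1.92e-04). The counted span of *GP6* lies inside that of *GP6-AS1*, and that of *RDH13* meets *GP6-AS1* and ENSG00000267149. Alignments where these spans overlap cannot be assigned to 1 gene.

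Beside *TLE6*, *TLE2* was higher (36 and 31 in naïve, 59 and 72 in primed, edgeR adjusted p = 0.0420), though its canonical transcript was not called (36 and 25 in naïve, 46 and 58 in primed, adjusted p = 0.191), and the zinc-finger gene *ZNF77* lower (118 and 140 in naïve, 55 and 65 in primed). Beside *PADI6*, *RCC2*, which encodes a regulator of mitosis, was higher (438 and 418 in naïve, 692 and 775 in primed), as was its antisense *RCC2-AS1* (238 and 202 in naïve, 444 and 442 in primed). The span of *RCC2-AS1* lies inside the counted span of *RCC2*. Strand was not used, so these alignments were counted for both genes and cannot be assigned to either. *PADI4* was not called (10 and 12 in naïve, 8 and 22 in primed). Near *NLRP5*, *ZNF787* was not called, with 56 and 55 counts in naïve and 63 and 86 in primed libraries, and was higher under library size (log2 fold change 0.75, adjusted p = 0.0134).

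The relatives of the members in other families gave a mixed picture. Of the 12 other NLRP genes in the files, 3 were tested and all 3, *NLRP1*, *NLRP12* and *NLRX1*, were higher in primed hESCs, with *NLRP12* at 53 and 47 counts in naïve and 89 and 108 in primed libraries. The canonical transcript of *NLRP1* was not called (adjusted p = 0.0694). Of 4 other PADI genes, *PADI3* was higher (1 and 3 against 47 and 60 counts), *PADI1* was lower (30 and 34 against 2 and 2), and *PADI2* and *PADI4* were not called. Of 5 other TLE genes, *TLE4*, *TLE2* and *TLE5* were higher, *TLE3* was lower and *TLE1* was not called. *TLE3* was not lower under library size. *TLE5* had 72 and 56 counts in naïve and 117 and 127 in primed libraries. Inside its span, ENSG00000267469 had 68 and 54 in naïve and 114 and 118 in primed libraries, so that call rests mainly on shared alignments.

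Of 29 other oocyte and maternal-effect genes, 16 were tested, with 5 higher, 6 lower and 5 not called, and 8 higher and 3 lower under library size. *DPPA3*, which protects the methylation of the maternal genome in the zygote, had 3469 and 3745 counts in naïve and 10 and 6 in primed libraries (log2 fold change -9.10 ± 0.25 SE). *ZFP57*, which keeps imprints methylated, had 470 and 437 in naïve and 14 and 14 in primed libraries (log2 fold change -5.32 ± 0.25 SE). *DAZL*, an RNA-binding protein gene of germ cells, went the other way with 6 and 1 in naïve and 320 and 342 in primed libraries (log2 fold change 6.21 ± 0.35 SE). The counted span of *DAZL* meets that of ENSG00000229271, which had 4 and 1 counts in naïve and 369 and 364 in primed libraries, and its canonical transcript had 0 and 0 in naïve and 38 and 27 in primed libraries. *ZP3*, a zona pellucida gene, was higher as well (66 and 59 in naïve, 267 and 329 in primed, log2 fold change 1.94 ± 0.21 SE), with 1.16 ± 0.24 for its canonical transcript.

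Over all these other lists, 38 of 60 genes were tested and 15 were higher and 15 lower, or 19 and 10 under library size. The median log2 fold change was -1.43 for the 10 tested 6q13 neighbours and kin and 0.22 for the 16 oocyte and maternal-effect genes. The first of these medians lies between *MTO1* (-1.46) and OOEP-AS1 (-1.41), which had -0.82 and -0.77 under library size. The span of *MTO1* meets *EEF1A1*, and that of OOEP-AS1 holds RPL39P3. Some other calls of these lists share alignments with other genes as well. *GDF9*, an oocyte growth factor gene singled out after its values were seen, was called lower with 4903 and 4700 counts in naïve and 1617 and 1958 in primed libraries, but its span meets that of *UQCRQ*, which had 5127 and 4867 in naïve and 1691 and 2069 in primed libraries, and its canonical transcript had 1 and 2 in naïve and 1 and 1 in primed libraries.

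**Figure D5:**
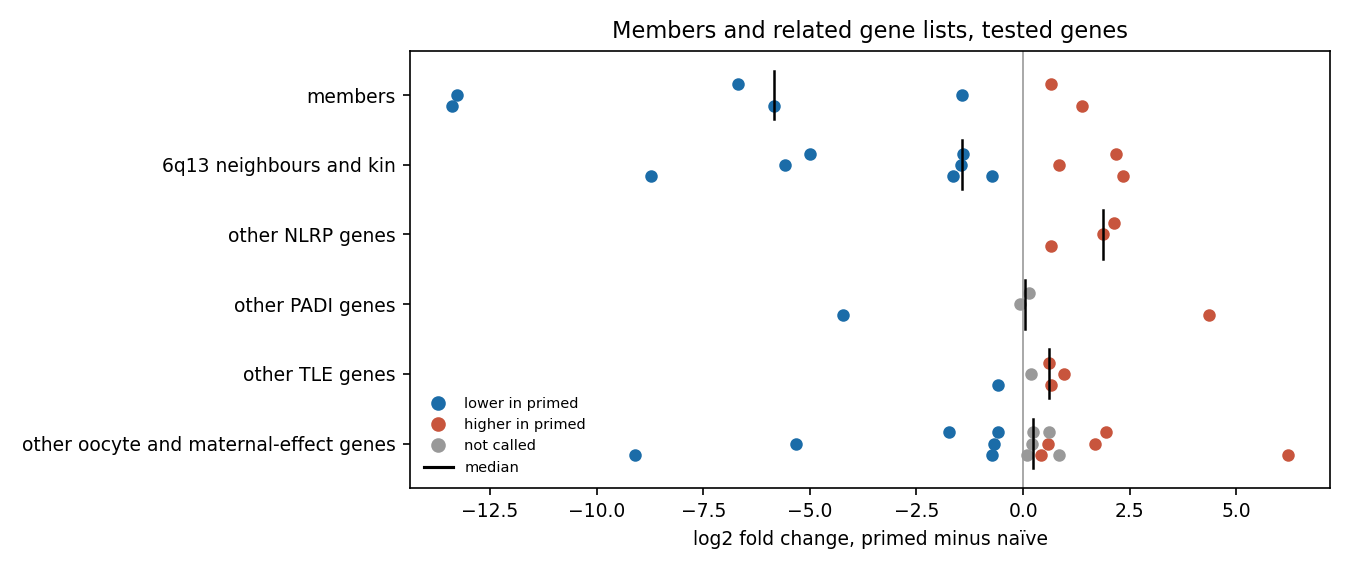
Log2 fold change, primed minus naïve, of each tested gene of the members and of the 5 related lists; points are coloured by the call and the black line is the median of a list. The members have a median of -5.83, while the other oocyte and maternal-effect genes lie on both sides of 0 with a median of 0.22.

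Markers of the cell states and of other cell types were checked in the same libraries. Summed over all transcripts, counts were 129276054 to 161548901 per library, where 1 alignment can be counted many times. Over the counted transcripts of all genes they were 23542387 to 30978752. All 8 naïve markers were lower and all 6 primed markers higher in primed hESCs, except that *KLF17* changed sign under library size. The *KLF17* span had 2200 and 2423 counts in naïve and 2083 and 2236 in primed libraries. Inside it, ENSG00000233514 had 2169 and 2386 in naïve and 2081 and 2231 in primed libraries. The call of *KLF17* thus rests mainly on alignments shared with that gene. Of 4 genes shared by both states, *SOX2* and *LIN28A* were higher, *NANOG* was lower and *POU5F1* was not called. Of the 9 oocyte markers, which include *ZP3* and *GDF9*, the other 7, *ZP1*, *ZP2*, *ZP4*, *BMP15*, *FIGLA*, *NOBOX* and *H1-8*, had at most 5 counts in every library. Of 6 trophoblast markers, 5 were lower in primed hESCs and *KRT7* was not called, with a summed level of 1647 to 1969 CPM in naïve and 3.23 to 4.17 CPM in primed libraries. Most of the naïve sum was *CGA*, whose canonical transcript had 35747 and 47550 of 38017 and 50262 counts. Of the 6 fibroblast markers, 3 of the 4 tested were higher in primed hESCs, at 59.0 to 61.2 CPM in sum against 3.64 to 4.33 CPM. Most of that primed sum was *COL1A1* (948 and 1174 counts) and *COL1A2* (706 and 605 counts). *COL3A1* was not called, and *DCN* and *LUM* had at most 5 counts in a library. The trophoblast markers moved with *KHDC3L*, *KHDC1L*, *NLRP2* and *NLRP7*, and their part in these results was not tested.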

How the data were processed

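Nanopore cDNA libraries of total RNA were made from 2 naïve and 2 primed H1 hESC samples. The authors aligned the reads to GRCh38 with minimap2 and counted alignments with featureCounts 2.0.0 on Ensembl release 105. The deposited values are raw counts per transcript, taken over whole transcript spans, introns included, without strand, with an alignment counted for every transcript it overlaps and at every place it aligns. Identifiers were matched to GENCODE release 44 (242542 of 244825 transcripts). The 2283 unmatched transcripts, with 1.00% of the counts, were left out.

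A gene needed at least 10 counts in 2 or more libraries and was tested with edgeR 4.0.16 in R 4.3.3 (TMM, quasi-likelihood, state as the only term, two-sided), with Benjamini-Hochberg adjustment over all 27633 genes. Isoform usage was tested over 159577 isoforms. The SE is the log2 fold change over the square root of F. Floors were 3 counts per library, and intervals and floors cover counting error only. Fits were also run on simulated data with known changes. The simulated counts of each gene or isoform were drawn independently, so these runs do not cover alignments shared between genes or isoforms. Tables were handled with pandas 2.3.3 and scipy 1.17.1 in Python 3.11.15.

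The members and gene lists were chosen with earlier results of these data known. Named were the 9 members, genes overlapping or within 50000 bases of them, and from each list at most the 4 with the largest change among those called whose mean count was 50 or more. The few others were named after their values were seen. Alternatives were DESeq2 1.42.0, library size, the replicate number as a block, other count minimums, other gene values, a log2 fold change beyond 1, other isoform settings and each library left out.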

Additional observations from a re-analysis of the deposited data

How the results depend on the processing

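The 5 members lower in primed hESCs kept their direction and call under every alternative run, with log2 fold changes from -13.96 to -12.75 for *KHDC1L*, -7.10 to -6.05 for *NLRP2*, -6.37 to -5.19 for *NLRP7* and -6.53 to -0.78 for *OOEP*. The -0.78 of *OOEP* is that of OOEP-202, whose alignments lay almost wholly over RPL39P3, and the -6.53 is that of the canonical transcript. No range is given for *KHDC3L*, whose primed counts were 0, so that its fitted value depends on how zeros are handled. *TLE6* kept its call in each fit that tested it (0.99 to 2.02, largest adjusted p = 0.0271). *KHDC1* reversed to -0.19 with the canonical transcript and to -0.19 without the alignments over KHDC1-AS1, an alternative chosen after seeing the data, and lost its call at 0.46 with the canonical transcript and library size together, also chosen after seeing the data. The number of members called higher was 1 with a minimum of 50 counts, with the canonical transcript, without the inner genes and with a log2 fold change beyond 1. With that last threshold, 18 genes of the other lists were called, 8 of them higher. Member isoforms called were 7 without a dIF threshold, 0 with a minimum of 50 counts and 0 to 1 with a library left out. Where these causes are not given by the construction of the alternative, the cause was not tested.

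Replicate numbers were shared between the states, but nothing says that they pair the libraries, and the deviations of same-numbered libraries had a correlation of 0.04 across genes. With the replicate number as a block, 0 member isoforms were called, and the block changed no member's expression call. Depth limits *NLRP5* and *PADI6*, with at most 8 counts in a library.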
